A study of Homo sapiens with 12 samples.

Results

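Oxidative phosphorylation is carried out by 5 protein complexes of the inner mitochondrial membrane, and most of their subunits are encoded in the nucleus. The nuclear genes described here were those protein-coding genes of the expression table whose current symbol begins with NDUFA, NDUFB, NDUFC, NDUFS or NDUFV and ends in a number, is SDHA, SDHB, SDHC or SDHD, or begins with UQCR, COX4 to COX8 or ATP5. The rule used names only and found 79 genes of the 12725 in the table. They comprised 36 genes of complex I, 4 of complex II, 8 of complex III, 12 of complex IV and 19 of complex V. NDUFA4 was placed with complex IV, where its protein is found, and COX7A2L, a factor of respiratory supercomplexes, was kept with complex IV by its name. The 19 genes of complex V include ATP5IF1, which encodes an inhibitor of the enzyme, and ATP5MF-PTCD1, a readthrough gene whose reads cannot be separated with certainty from those of its neighbours.

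The expression of these genes was compared between Ramos cells with induced miR-28 and Ramos cells with a scrambled control sequence. Ramos is an established human B cell line from a Burkitt lymphoma. All cells carried the lentiviral vector pTRIPZ, which expresses its insert and a red fluorescent protein when doxycycline is added. Both groups were therefore exposed to puromycin at 0.4 µg/ml and to doxycycline at 0.5 µg/ml for 2 days, and RFP+ cells were sorted before polyadenylated RNA was sequenced. Each group had 6 libraries, matched by the labels into 6 pairs. Library batch 1 held pairs 1, 2 and 3, and library batch 2 held the rest. A label XENO, whose meaning is not explained, is 1 in pairs 1, 4 and 5, is 2 in pairs 2 and 6, and is missing in pair 3. The deposited names call pairs 4 and 5 bis and tris of the sample of pair 1, and pair 6 bis of the sample of pair 2, so there were 3 sample names for 6 pairs, and n counts libraries. The labels do not say which pairs came from separate cultures, so p-values measure the spread among these libraries, which may be technical in part.

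Complex I takes electrons from NADH and complex II takes them from succinate. Both pass them through coenzyme Q to complex III, from which cytochrome c carries them to complex IV and oxygen. Complexes I, III and IV pump protons, and complex V, the ATP synthase, uses the resulting gradient to make ATP. Complexes I, III, IV and V also need subunits encoded by mitochondrial DNA, whereas complex II is nuclear in full and doubles as an enzyme of the tricarboxylic acid cycle. Germinal centre B cells, the normal counterpart of Burkitt lymphoma, are known to rely on oxidative phosphorylation.

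Levels are given as CPM, read counts relative to library size with TMM normalization factors, the unit of the deposited table. The libraries held 15404730 to 37876636 reads over the 12725 genes, and a single member had between 31 and 41302 reads in a library, so that no member was at 0 in any library. MIR28, the induced gene, had 0 reads in the 6 scramble libraries and at least 19 reads in each miR-28 library. All 8 B cell markers examined were measured, with a summed level of 9706 to 11392 CPM in miR-28 libraries and 10093 to 11261 CPM in scramble libraries. Of the markers of other cells, 2 of 8 for T cells were in the table (TRAC and TRBC2, summed level 40.0 to 158 CPM in miR-28 and 17.5 to 124 CPM in scramble libraries), as was 1 of 5 for stroma and endothelium (PECAM1, 0.843 to 2.39 CPM in miR-28 and 0.713 to 2.06 CPM in scramble libraries). The part of these markers in the results was not tested. None of the 5 myeloid and none of the 4 epithelial markers were in the table, and CD3D, CD3E, CD3G and COL1A1 were among those without a row. The scramble library of pair 3 stood apart through its mitochondrially encoded transcripts, described further below.

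A microRNA lowers the transcripts that pair with its seed, bases 2 to 8 of the mature strand. The strand miR-28-3p is shown because its seed was searched for in the members' 3' untranslated regions, together with the matching stretches of 3 members (RefSeq mature sequence from GRCh38.p14, chr3:188688834-188688855, plus strand; sites from GENCODE release 29 transcripts on GRCh38). Capitals mark the seed in the microRNA and the letters complementary to it, ATCTAGT, in the transcripts, which are written as DNA and 5′ to 3′. ATP5F1E lies on chromosome 20, NDUFA9 on chromosome 12 and ATP5MC3 on chromosome 2.
hsa-miR-28-3p: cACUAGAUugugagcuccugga
ATP5F1E: tttcttactaaATCTAGTgcttcttgaac
NDUFA9: gaatcgagattATCTAGTttcccctcgac
ATP5MC3: gttgattcatcATCTAGTctatatcaccc
UQCRB was the remaining member with a match. The longest annotated 3' untranslated region of each gene was searched. Such a match was present in 4 of 79 members (5.06%), against 856 of the 10768 genes of the table with an annotated 3' untranslated region (7.95%). The members' 3' untranslated regions were shorter, with a median of 451 bases against 1358 bases. Those of the 4 members with a match had 2030 to 7209 bases, and shorter transcripts of these genes may lack the match. The 4 members with a match had a median log2 fold change, miR-28 over scramble, of 0.0078, and the other members had a median of -0.0050. Matches to the other mature strand, miR-28-5p, were not counted here, so these counts cover miR-28-3p alone.

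The first question was whether any of these genes changed with miR-28. None of the 79 genes passed the test. In limma on log2(CPM + 1) with library batch as a term, 0 members had a Benjamini-Hochberg adjusted p under 0.05, where 0.0157% of all genes did (2 of 12725). No member had an unadjusted p under 0.05 either, where 0.33% of all genes did. With the pair as a block the limma counts were again 0 and 0 members, beside 0.0236% and 7.3% of all genes. The edgeR quasi-likelihood test and DESeq2 on the reads recovered from the table also called 0 members with batch as a term, and edgeR called 0 with the block. Of all genes tested, edgeR with batch called 0.0%, DESeq2 0.0158% and edgeR with the block 0.00786%. Members at an unadjusted p under 0.05 again numbered 0 in each of these tests, beside 0.354% of all genes in edgeR with batch, 6.94% in edgeR with the block and 0.615% in DESeq2. With the libraries of each sample name averaged and the name as a block, which leaves 3 values per group, limma again gave 0 members at an adjusted and 0 at an unadjusted p under 0.05, beside 0.0% and 3.85% of all genes.

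The log2 fold changes ranged from -0.23 for SDHC to 0.22 for NDUFS4, with 38 members above 0 and 41 below. Their median was -0.0041, and the median of all genes was -0.010. By complex the median was -0.015 for complex I, 0.0027 for complex II, 0.0074 for complex III, -0.031 for complex IV and 0.0035 for complex V. No member was higher in 6 of 6 pairs or lower in 6 of 6 pairs, directions that 2.07% and 2.19% of all genes showed. Nor did any member have all its miR-28 libraries above all its scramble libraries (0.0157% of all genes) or all below (0.0472%). Pair 3 weighed on these values: without it 10 members changed sign, and the median size of the log2 fold change was 0.037 in place of 0.059.

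A lack of calls does not show that levels were equal, so the intervals matter. With the pair as a block in limma, the 95% interval of the log2 fold change lay within a 1.5-fold change in either direction for 79 of 79 members, and for 11201 of all 12725 genes. The median half-width of this interval was 0.17 on the log2 scale. The fit takes the 6 pairs as independent, though they carry only 3 sample names, so these intervals may be too narrow. With batch as a term and no block the differences between pairs remain in the error. The interval then lay within 1.5-fold for 55 of 79 members and for 6496 of all 12725 genes. The median standard error was 0.0753 with the block and 0.198 without it.

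**Figure D1:**
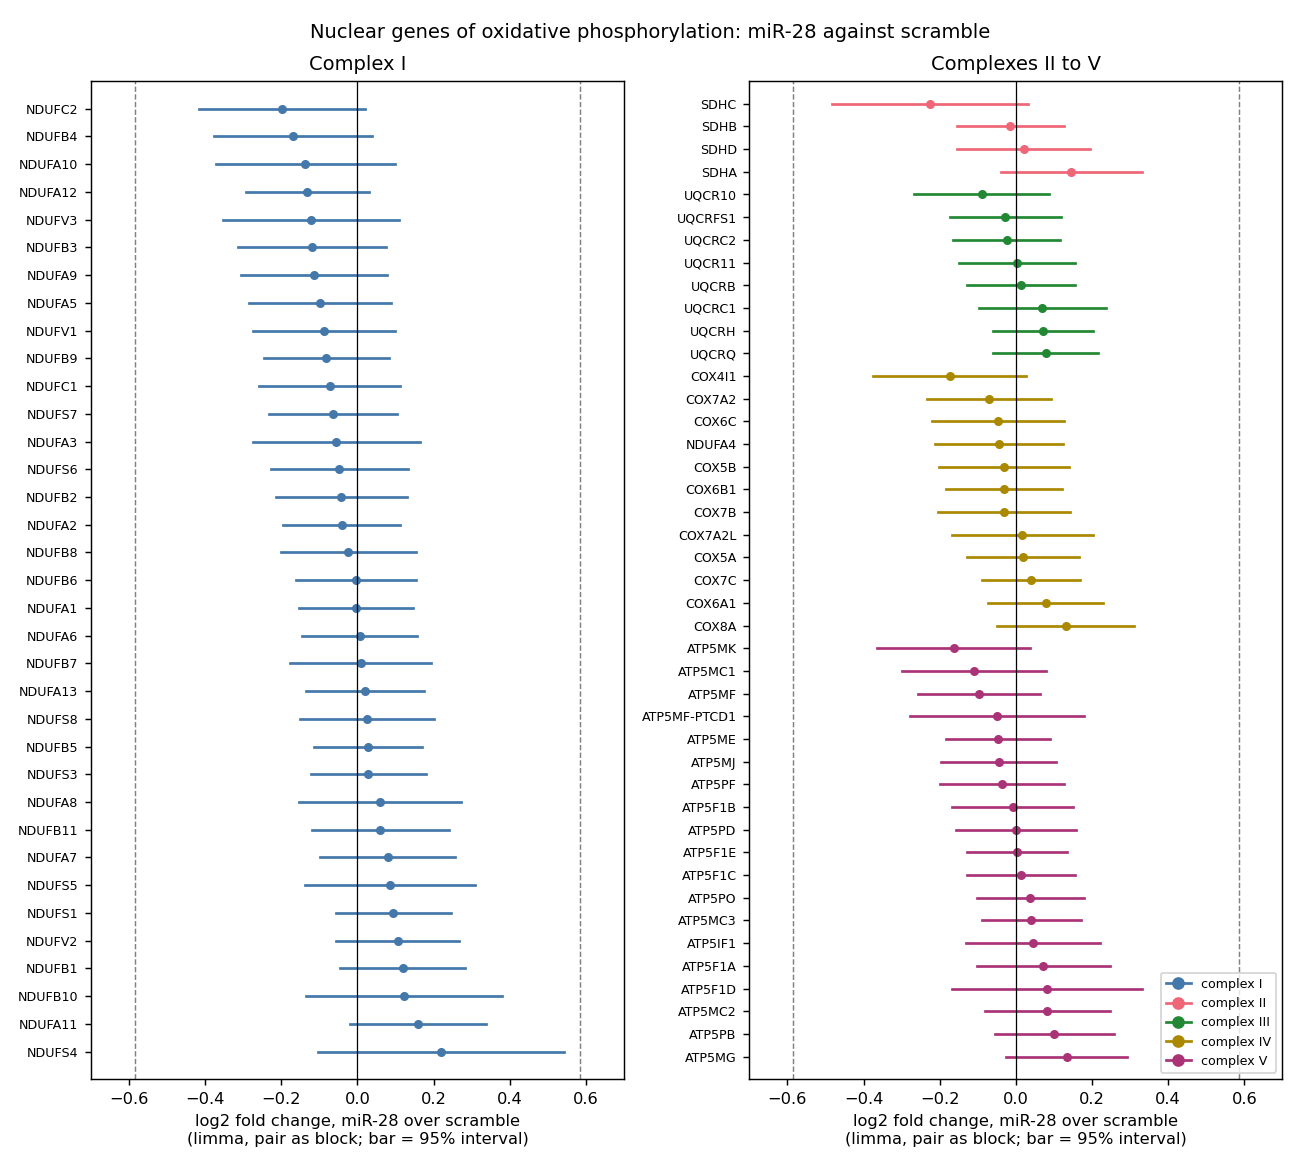
Log2 fold change of 78 of the 79 genes, miR-28 over scramble, by complex, with points for the estimate of limma with the pair as a block and bars for the 95% interval (6 libraries in each group). The dashed lines mark a 1.5-fold change, and each bar lies between them and covers 0.

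Complex I is built from a matrix arm that oxidises NADH and a membrane arm that pumps protons. Of its 36 nuclear genes, 16 had a log2 fold change above 0 and 20 below. NDUFB4, an accessory subunit of the membrane arm, had the smallest unadjusted p of the complex in the fit with batch (0.190; adjusted p = 1.00, limma). Its levels ran from 38.5 over a median of 49.2 to 54.7 CPM in miR-28 libraries and from 48.3 over 52.7 to 64.5 CPM in scramble libraries. The ranges of the groups overlapped, and the log2 fold change was -0.17 with a standard error of 0.122 and 2 of 6 pairs higher.

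NDUFA10 and NDUFA9, accessory subunits of the membrane arm and of its junction with the matrix arm, gave similar values. NDUFA10 averaged 73.7 ± 10.3 CPM in miR-28 and 81.6 ± 15.1 CPM in scramble libraries (SD, n = 6 each), and NDUFA9 averaged 47.6 ± 4.75 CPM in miR-28 and 51.5 ± 4.05 CPM in scramble libraries. NDUFV3, an accessory subunit of the NADH-binding module, averaged 20.9 ± 1.61 CPM with miR-28 and 23.0 ± 3.60 CPM with scramble. In all 3 genes the groups overlapped, and the log2 fold changes lay between -0.14 and -0.11. Without pair 3 they were -0.017 for NDUFA10, -0.058 for NDUFA9 and -0.028 for NDUFV3. NDUFC2, a membrane arm subunit singled out after its values were seen, had the smallest p of all members with the block (unadjusted p = 0.0688, limma, log2 fold change -0.20, higher in 1 of 6 pairs).

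NDUFS4, an accessory subunit of the matrix arm whose loss causes Leigh syndrome, was the lowest member by CPM and the least even (GRCh38 chromosome 5, 53560633 to 53683340, plus strand). It measured 14.5, 14.0, 3.69, 9.19, 8.18 and 13.0 CPM in the miR-28 libraries of pairs 1 to 6, and 13.3, 15.0, 1.38, 7.82, 9.01 and 10.9 CPM in their scramble partners. Both libraries of pair 3 were the lowest of their group, 10.9-fold below the highest library at the extreme. Its log2 fold change of 0.22 had a standard error of 0.458 with batch, and without the scramble library of pair 3 it was -0.19. The fit without that library had no pair term, so the low miR-28 library of pair 3 stayed in without its partner. Within pairs 1, 2, 4, 5 and 6 the differences of log2(CPM + 1), miR-28 minus scramble, were 0.12, -0.098, 0.21, -0.12 and 0.24.

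Complex II oxidises succinate to fumarate. SDHA, the flavoprotein that binds succinate, measured 155 to 278 CPM in miR-28 libraries (median 213) and 109 to 249 CPM in scramble libraries (median 215). SDHB, the iron-sulfur subunit, averaged 96.5 ± 17.2 CPM with miR-28 and 97.1 ± 14.1 CPM with scramble (SD, n = 6 each). Neither gene separated the groups, with log2 fold changes of 0.15 (standard error 0.208) and -0.015 (0.146). Without pair 3 the value of SDHA was 0.075, and without the scramble library of that pair alone it was -0.018. The second of these fits had no pair term, so the miR-28 library of pair 3, the lowest of its group, stayed in without its partner. SDHA is known to have near-identical pseudogene copies, as several other members do, so its reads are uncertain.

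SDHC (chromosome 1, 161314257 to 161375340, plus strand) and SDHD are the membrane anchors of complex II. SDHC measured 94.8, 96.3, 91.4, 129, 91.6 and 82.2 CPM in the miR-28 libraries of pairs 1 to 6, against 90.3, 94.6, 158, 143, 91.0 and 119 CPM in the scramble libraries. The scramble library was the higher one by a wide margin in pairs 3 and 6 and by less in pair 4, and the other 3 pairs were slightly higher with miR-28. Its log2 fold change was -0.23 (standard error 0.171, unadjusted p = 0.213, limma with batch), and -0.11 without pair 3. SDHD averaged 104 ± 23.9 CPM with miR-28 and 102 ± 21.3 CPM with scramble.

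Complex III passes electrons from coenzyme Q to cytochrome c. The log2 fold changes of its 8 nuclear genes lay between -0.090 for UQCR10, a small subunit, and 0.078 for UQCRQ, another small subunit. UQCR10 measured 49.2 to 85.1 CPM with miR-28 (median 68.8) and 59.5 to 80.5 CPM with scramble (median 72.9). UQCRQ, and UQCRH, the hinge protein that helps cytochrome c to dock, were each higher with miR-28 in 5 of 6 pairs. UQCRQ averaged 72.7 ± 18.3 CPM with miR-28 and 68.4 ± 15.2 CPM with scramble, and UQCRH averaged 174 ± 40.0 CPM with miR-28 and 166 ± 37.6 CPM with scramble (SD, n = 6 each). These differences were smaller than the spread within each group, of which most lay between pairs (97.1% of the variance for UQCRQ and 97.3% for UQCRH). The SD of the differences within pairs was 0.080 and 0.078 on the log2 scale, beside log2 fold changes of 0.078 and 0.071. With the pair as a block the unadjusted p was 0.237 for UQCRQ and 0.252 for UQCRH (limma). UQCRC1, a core protein, had a log2 fold change of 0.070 with a standard error of 0.252, and 0.017 without pair 3.

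Complex IV reduces oxygen, and several of its subunits exist as tissue isoforms. The isoforms in the table were the ubiquitous ones, COX4I1, COX6A1, COX6B1, COX7A2 and COX8A. COX4I1 (chromosome 16, 85798633 to 85807044, plus strand), the regulatory subunit that binds ATP, had the smallest unadjusted p of all 79 members in the fit with batch (0.185, adjusted p = 1.00, limma). It measured 227 to 324 CPM in miR-28 libraries (median 296) and 295 to 402 CPM in scramble libraries (median 301). The high scramble values came from pairs 3 and 4, at 402 and 361 CPM, beside 300.3 and 277 CPM in their miR-28 partners, and the lowest miR-28 value, 227 CPM, came from pair 6, whose scramble library had 297 CPM. The log2 fold change was -0.17 (standard error 0.124), with 2 of 6 pairs higher.

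COX8A, a small subunit, was higher with miR-28 in 5 of 6 pairs and averaged 124 ± 23.0 CPM against 114 ± 26.5 CPM with scramble (SD, n = 6 each; log2 fold change 0.13, standard error 0.180). Without pair 3 the log2 fold change of COX8A was 0.056. COX6A1, COX6B1 and COX7A2 had log2 fold changes of 0.078, -0.032 and -0.072. NDUFA4, which was first assigned to complex I, averaged 145 ± 39.0 CPM with miR-28 and 148 ± 27.4 CPM with scramble. COX7A2L had a log2 fold change of 0.017.

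The catalytic head of complex V is formed by the alpha and beta subunits. ATP5F1B, the beta subunit, measured 624 to 1331 CPM in miR-28 libraries (median 957) and 602 to 1257 CPM in scramble libraries (median 989). ATP5F1A, the alpha subunit, measured 672 to 1214 CPM in miR-28 libraries (median 959) and 526.25 to 1236 CPM in scramble libraries (median 929). The groups overlapped almost fully, with log2 fold changes of -0.0080 for ATP5F1B and 0.072 for ATP5F1A, the second of which was 0.016 without pair 3.

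The c ring, which turns as protons pass, is made of a protein that 3 genes encode with the same mature form. ATP5MC1 (chromosome 17, 48892765 to 48895871, plus strand) measured 171, 165, 38.4, 53.4, 188 and 43.7 CPM in the miR-28 libraries of pairs 1 to 6, against 169, 149, 45.7, 70.9, 177 and 52.3 CPM in the scramble libraries. It was low in both libraries of pairs 3, 4 and 6, and the partners of a pair were far closer to each other than the pairs were. ATP5MC3 measured 321, 311, 148, 177, 349 and 170.3 CPM with miR-28 and 303, 287, 137, 180.0, 343 and 179 CPM with scramble, which follows the same order. ATP5MC2 did not share it: its values were 146 to 236 CPM with miR-28 and 161 to 223 CPM with scramble, and the lowest library of each group was that of pair 4.

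Of the membrane subunits of complex V, ATP5MG was higher with miR-28 in 5 of 6 pairs (235 ± 55.0 CPM with miR-28 and 212 ± 41.3 CPM with scramble; log2 fold change 0.13, standard error 0.198). ATP5MK was higher in 1 of 6 pairs (68.8 ± 18.7 CPM with miR-28 and 75.2 ± 9.77 CPM with scramble, log2 fold change -0.16). ATP5MF was higher in 2 of 6 pairs (233 ± 69.9 CPM with miR-28 and 244 ± 50.3 CPM with scramble, log2 fold change -0.096). The inhibitor ATP5IF1, which blocks the reverse reaction of the enzyme, averaged 195 ± 15.9 CPM with miR-28 and 190 ± 25.8 CPM with scramble (SD, n = 6 each). ATP5MF-PTCD1 averaged 15.8 ± 4.45 CPM with miR-28 and 16.4 ± 4.51 CPM with scramble, with the reservation on its reads given above.

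The largest differences in these genes were those between pairs. The summed level of the 79 genes was 12618, 12213, 8148, 8792, 13131 and 8422 CPM in the miR-28 libraries of pairs 1 to 6, against 11847, 11995, 7973, 9511, 12671 and 8895 CPM in the scramble libraries. Both libraries of pairs 3, 4 and 6 lay below both libraries of pairs 1, 2 and 5, and the highest library stood 1.65-fold above the lowest. Within a pair the ratio of miR-28 to scramble was 1.07, 1.02, 1.02, 0.924, 1.04 and 0.947, above 1 in 4 of 6 pairs. The mean was 10554 ± 2328 CPM for miR-28 and 10482 ± 1934 CPM for scramble (SD, n = 6 each). The members took 0.808% to 1.21% of the reads of a library. In RNA from bulk cells, a lower level in every cell and fewer cells with a high level cannot be told apart.

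The scaling of the values moved with this order. The TMM factors were 1.01 to 1.08 in the libraries of pairs 3, 4 and 6 and 0.912 to 0.967 in those of pairs 1, 2 and 5. Without these factors the highest library stood 1.496-fold above the lowest, and the same pairs remained the lower ones. The part of the scaling in the rest was not tested. This order of pairs is neither that of the library batch nor that of the XENO label or the shared sample names, and what set the pairs apart was not tested.

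**Figure D2:**
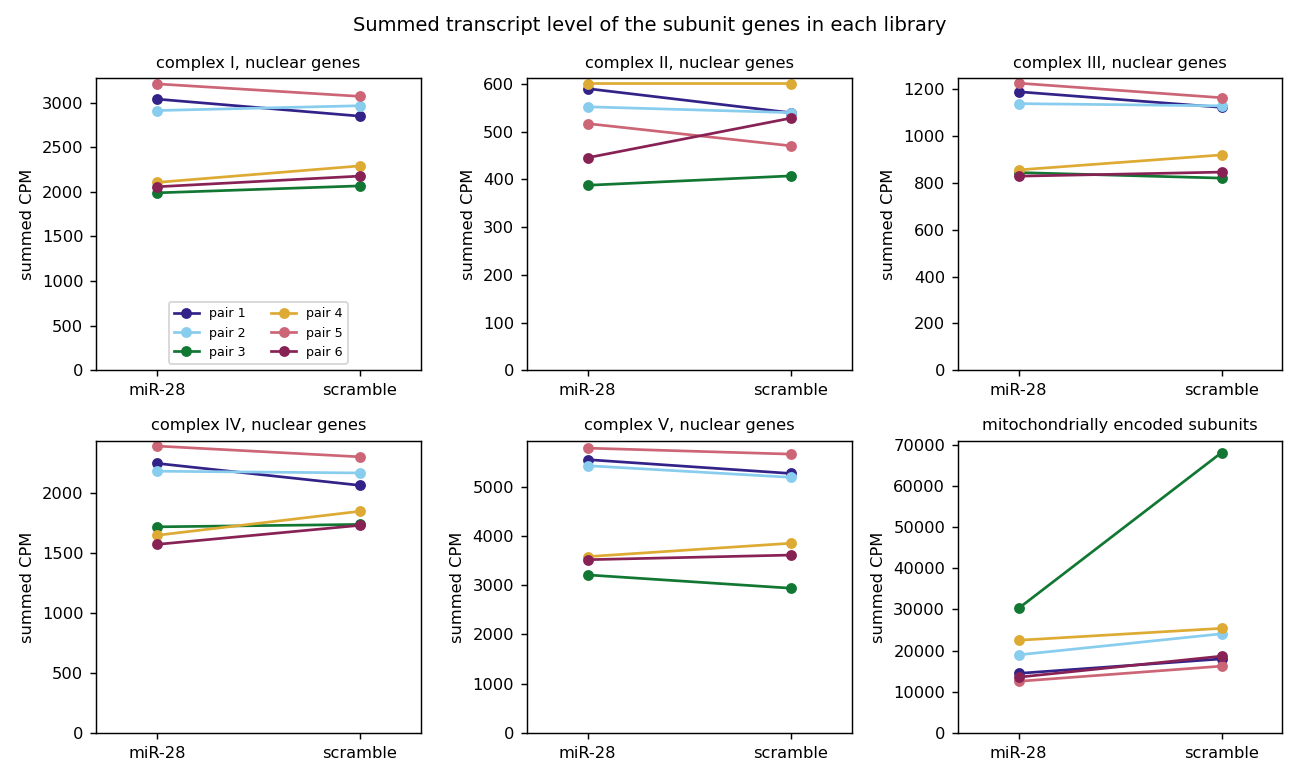
Summed CPM of the nuclear genes of each complex and of the 13 mitochondrially encoded subunits, with miR-28 left and scramble right and a line joining the libraries of a pair. Pairs 3, 4 and 6 are low in complexes I, III, IV and V, complex II keeps another order, and the scramble library of pair 3 is highest in the mitochondrially encoded sum.

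The complexes shared this order except for complex II. Complex I summed to 3041, 2913, 1989, 2106, 3212 and 2058 CPM in the miR-28 libraries of pairs 1 to 6 and to 2850, 2967, 2067, 2291, 3072 and 2177 CPM in the scramble libraries. Complex V summed to 5550, 5427, 3209, 3581, 5784 and 3518 CPM with miR-28 and to 5270, 5192, 2940, 3852, 5663 and 3612 CPM with scramble. Complexes III and IV also had their 3 lowest values in each group in pairs 3, 4 and 6. Complex II summed to 590, 552, 388, 601, 517 and 445 CPM with miR-28 and to 540, 540, 407, 601, 470.4 and 528 CPM with scramble. Pair 4, low in the other complexes, was the highest pair of complex II, where SDHA and SDHC were high.

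Gene by gene, a median of 92.7% of a member's variance over the 12 libraries lay between pairs, beside 85.1% for all genes with a mean of at least 5 CPM. Above 80% were 61 of 79 members and 6318 of those 10388 genes. The lowest library of a member belonged to pair 3 for 34 genes, to pair 6 for 26, to pair 4 for 16 and to pair 1 for 3. The highest library belonged to pair 5 for 46 genes. Pair 5 was thus the highest for most members, while no single pair was the lowest for most.

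**Figure D3:**
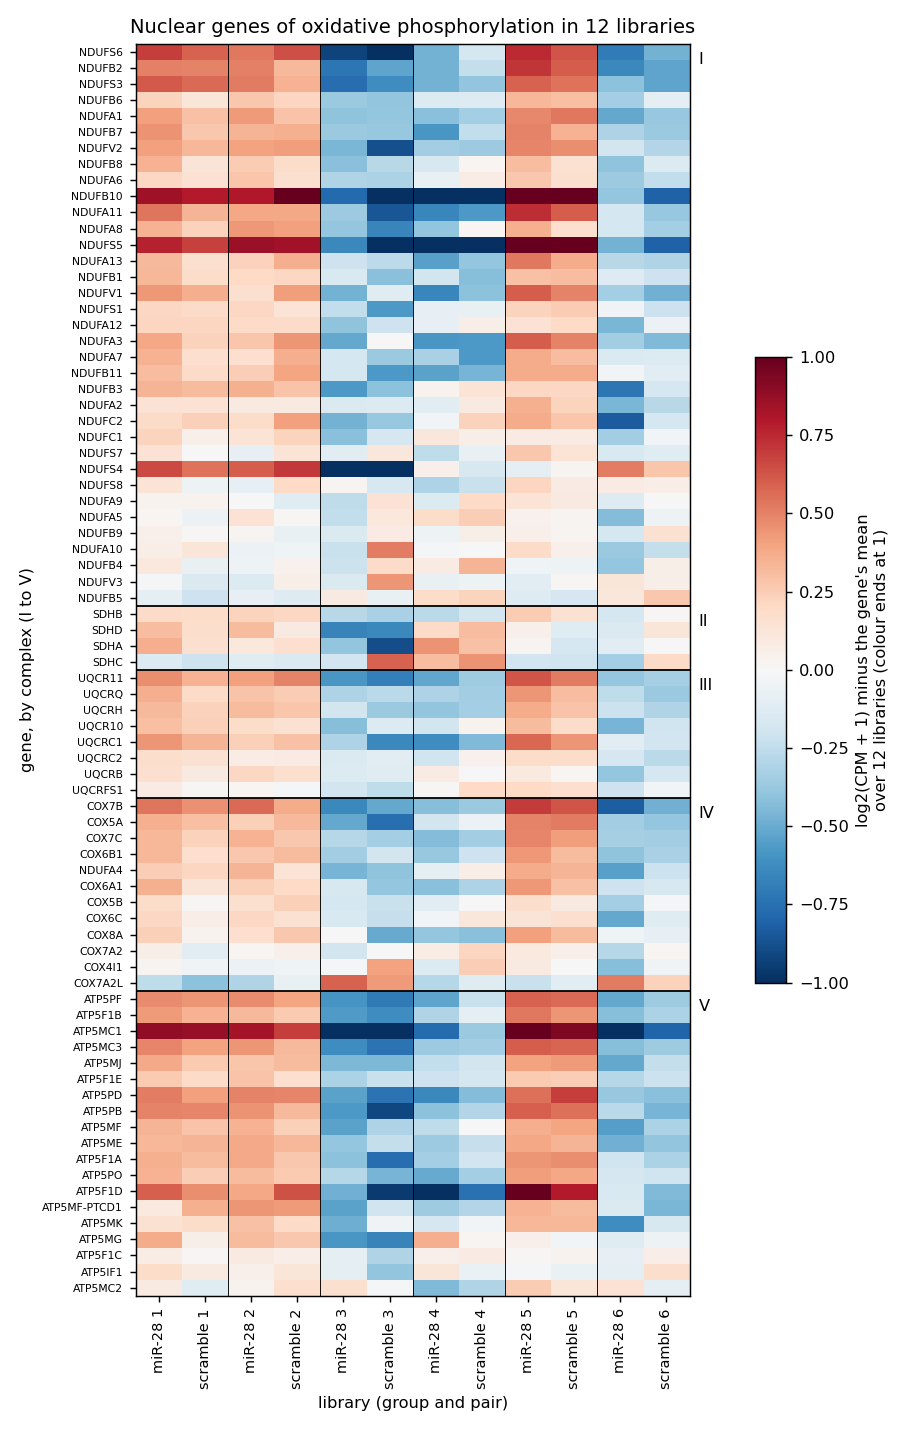
Level of 78 of the 79 genes in each library as log2(CPM + 1) minus the gene's mean over the 12 libraries, by complex, with miR-28 left of scramble in each pair. Most rows are blue in both libraries of pairs 3, 4 and 6 and red in pairs 1, 2 and 5, while COX7A2L, NDUFB5 and SDHC run the other way in part.

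The likeness of each gene to the rest was measured as Pearson's r between its level and the summed level of all the other members, over 12 libraries in 6 pairs. Since the sums fall into a low and a high set of libraries, r mainly tells on which side of that gap a gene was high, and it is given as a description. It was above 0.5 for 65 members and below 0 for 5, with a median of 0.904. The closest were ATP5PF, a subunit of the peripheral stalk of complex V (r = 0.995), ATP5F1B (0.992) and ATP5MC1 (0.992). COX7A2L (chromosome 2, 42333546 to 42425088, minus strand) ran most against the sum (r = -0.77). It measured 106, 102, 191, 103, 108 and 181 CPM with miR-28 and 94.6, 119.9, 169, 116, 117 and 149 CPM with scramble, high in pairs 3 and 6 and not in pair 4. NDUFB5 (-0.72), SDHC (-0.52), NDUFV3 (-0.45) and COX4I1 (-0.026) were the others below 0.

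Members also differed in how far they spread. The ratio of the highest to the lowest library had a median of 1.90 for complex I, 1.956 for complex II, 1.72 for complex III, 1.85 for complex IV and 2.06 for complex V. After NDUFS4 the largest ratios were those of NDUFB10 (6.39), NDUFS5 (5.90), ATP5MC1 (4.88), ATP5F1D (4.52) and NDUFS6 (3.62), named after their values were seen. NDUFB10, an accessory subunit of the membrane arm, measured 88.4, 85.4, 27.98, 18.9, 114 and 37.1 CPM in the miR-28 libraries of pairs 1 to 6. Its scramble libraries had 85.1, 98.6, 17.8, 22.0, 110.2 and 27.4 CPM. Among the narrowest members were NDUFB9, an accessory subunit of complex I (1.26), and ATP5F1C, the gamma subunit that forms the rotor of complex V (1.31).

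Promoter windows of members were examined for letters bound by nuclear respiratory factor 1, a regulator of these genes, and by ETS family factors. The NRF1 letters were GCGCATGCG or its reverse complement CGCATGCGC, which overlap where GCGCATGCG is followed by C. The ETS letters were CCGGAAG or CTTCCGG. Windows of 250 bases before to 50 bases after the RefSeq start (GRCh38.p14) were at hand for 65 of 79 members. The NRF1 letters were found in 10 of 65 (15.4%), against 391 of 9404 genes of the table (4.16%) and 573 of all 27305 windows (2.10%). The ETS letters were found in 20 of 65 (30.8%), against 2002 of 9404 (21.3%) and 2913 of 27305 (10.7%). Either of the 2 was found in 26 of 65 members (40%), against 2292 of 9404 (24.4%) and 3350 of 27305 (12.3%).

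The 60 bases around the NRF1 letters are shown for ATP5PF, the member closest to the sum, for NDUFB4, which did not follow it (r = 0.054), and for ATP5F1C, among the most even members (r = 0.586). Capitals mark the letters, and each is written 5′ to 3′ on the strand of its gene (ATP5PF chr21:25735141-25735200, minus; NDUFB4 chr3:120596152-120596211, plus; ATP5F1C chr10:7788130-7788189, plus).
ATP5PF: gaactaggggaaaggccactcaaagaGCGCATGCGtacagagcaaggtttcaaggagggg
NDUFB4: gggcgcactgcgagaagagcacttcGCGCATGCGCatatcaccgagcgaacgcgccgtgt
ATP5F1C: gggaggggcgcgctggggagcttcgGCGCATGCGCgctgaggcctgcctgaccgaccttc
The letters thus stood before members that followed the sum and before members that did not. A match describes the sequence and is not evidence of binding. The level of NRF1 itself is given with the regulators below.

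Within pairs, the 79 genes leaned to one side or the other without a common direction. The median difference of log2(CPM + 1), miR-28 minus scramble, was 0.093 in pair 1, 0.020 in pair 2, 0.028 in pair 3, -0.13 in pair 4, 0.049 in pair 5 and -0.082 in pair 6. In pair 1 there were 73 members above 0 and 6 below, while in pair 4 there were 11 above and 68 below. Pair 5 had 61 above, pair 2 had 44, pair 3 had 43 and pair 6 had 32. The SD of the differences over the members was 0.31 in pair 3 and 0.23 in pair 6, against 0.076 to 0.15 in the other pairs, and over all genes it was also highest in pairs 3 and 6, at 0.59 and 0.39. For all genes the median difference stayed between -0.017 and 0.0078 in every pair.

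**Figure D4:**
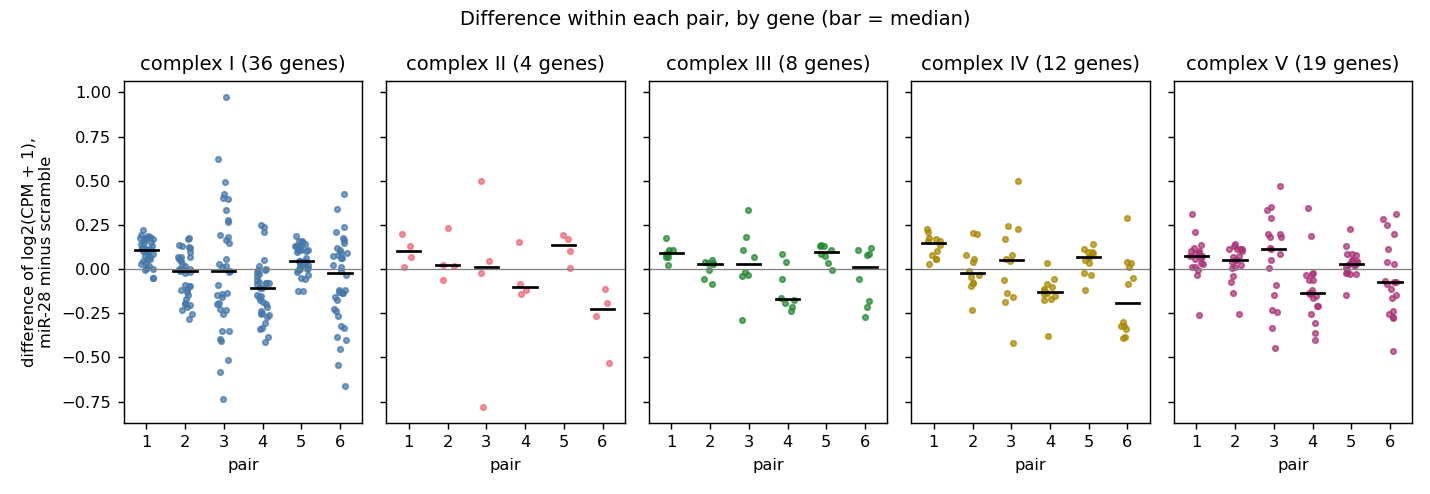
Difference of log2(CPM + 1), miR-28 minus scramble, for each gene (points) in each of the 6 pairs, by complex, with black bars for the median. Pair 1 lies mostly above 0 and pair 4 mostly below 0 in each complex, with medians over all 79 genes of 0.093 and -0.13.

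Whether the effect of miR-28 differed between library batches was tested by the interaction term of limma. It passed an adjusted p under 0.05 for 0 members and for 0.0% of all genes, and 0 members had an unadjusted p under 0.05, with or without the block. Of all 12725 genes, 9 had an unadjusted p under 0.05 for the interaction without the block and 171 with it. The edgeR and DESeq2 fits gave 0 members at either threshold as well, and of all genes edgeR called 0 and DESeq2 called 2. At the unadjusted threshold there were 8 of all genes in edgeR and 13 in DESeq2. The median log2 fold change was 0.049 in batch 1 alone and -0.041 in batch 2 alone. Batch 2 against batch 1 also gave 0 members with an adjusted p under 0.05 (0.0% of all genes, limma). At an unadjusted p under 0.05 there were 0 members too, and edgeR and DESeq2 gave 0 members at either threshold. Of all 12725 genes, 37 in limma, 41 in edgeR and 75 in DESeq2 had an unadjusted p under 0.05 for batch. The median difference in limma was -0.100 for the members and -0.012 for all genes. Without pair 3 there were 6 of 79 members at an unadjusted p under 0.05 for batch (4.79% of all genes), and without pair 5 there were 14 (13.1% of all genes), none with an adjusted p under 0.05. Each batch held pairs of low and of high summed level.

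Levels of different genes were compared per kilobase of annotated exon. ATP5F1B led with 415 ± 118 CPM per kilobase (SD over 12 libraries), followed by COX8A with 235 ± 47.7, COX6A1 with 164 ± 34.5, COX5A, a subunit on the matrix side, with 145 ± 41.0 and COX6B1 with 139 ± 31.8. From COX6A1 to COX6B1 neighbours differed by less than their spread. The lowest were NDUFV3 with 3.46 ± 0.452, NDUFA9 with 4.77 ± 0.450, ATP5MF-PTCD1 with 5.65 ± 1.498 and SDHC with 7.54 ± 1.73 CPM per kilobase. The length is the union of all annotated exons, so genes with long rare exons are set low by it: SDHC has 14160 bases of exon and NDUFA9 has 10391. The median per kilobase was 70.7 for complex IV, 56.7 for complex V, 37.4 for complex III, 30.6 for complex II and 27.5 for complex I.

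The 13 mitochondrially encoded subunits, which join the nuclear ones in complexes I, III, IV and V, had values of their own. Their summed level was 14464, 18964, 30269, 22503, 12536 and 13537 CPM in the miR-28 libraries of pairs 1 to 6, against 17972, 24066, 68076, 25393, 16212 and 18643 CPM in the scramble libraries. It was lower with miR-28 in 6 of 6 pairs, with the scramble library of pair 3 far above all others. No gene of the 13 passed an adjusted p under 0.05 in limma with batch or with the block, and 1 with batch and 13 with the block had an unadjusted p under 0.05, beside 0.33% and 7.3% of all genes. The edgeR test with batch and with the block and DESeq2 also called 0, and at an unadjusted p under 0.05 there were 2 in edgeR with batch, 13 in edgeR with the block and 4 in DESeq2, beside the shares of all genes given above. The smallest adjusted p with the block was 0.607. Of the 13 genes, 12 were lower in 6 of 6 pairs, which 2.19% of all genes were, and the median log2 fold change was -0.45. Polyadenylated libraries capture mitochondrial transcripts unevenly, nuclear copies of mitochondrial genes share reads with them, and the genes of a strand are transcribed together.

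MT-ND2, a subunit of the membrane arm of complex I, measured 979 to 2027 CPM with miR-28 (median 1729) and 1360 to 4679 CPM with scramble (median 2239). Its log2 fold change was -0.52 (standard error 0.232, adjusted p = 1.00, limma with batch) and -0.38 without pair 3. MT-ATP6, which forms the proton path of complex V, had a log2 fold change of -0.43 (standard error 0.205) and -0.34 without pair 3.

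The ratio of the mitochondrially encoded to the nuclear sum does not depend on the scaling of a library. It was 1.15, 1.55, 3.71, 2.56, 0.955 and 1.61 in the miR-28 libraries of pairs 1 to 6, against 1.52, 2.01, 8.54, 2.67, 1.28 and 2.10 in the scramble libraries. The ratio was lower with miR-28 in each pair, narrowly in pair 4 and most in pair 3. Since the nuclear sum was higher with miR-28 in 4 of 6 pairs and lower in the others, the order within pairs followed the mitochondrially encoded sum. The ranges of the groups overlapped, at 0.955 to 3.71 with miR-28 and 1.28 to 8.54 with scramble, and the ratio was given no test.

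**Figure D5:**
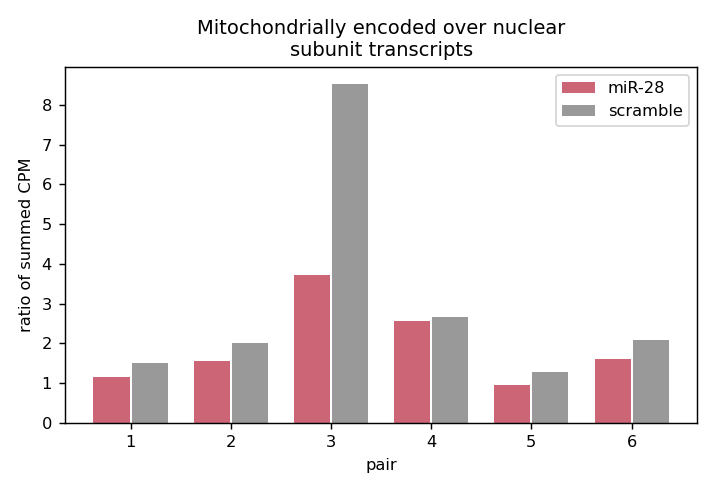
Ratio of the summed CPM of 13 mitochondrially encoded subunits to that of 79 nuclear genes in each library, with miR-28 left of scramble in each pair (1 library per bar). The miR-28 bar is the lower one in each pair, with 2.56 and 2.67 in pair 4 and 3.71 and 8.54 in pair 3.

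The other lists of pathway genes gave 0 calls in either direction in limma, with batch and with the block, and likewise in edgeR and DESeq2. Of 66 assembly factors 65 were measured, and 2 had an unadjusted p under 0.05 with batch and 4 with the block, in limma and in edgeR alike. Of all genes, 0.33% in limma and 0.354% in edgeR passed that threshold with batch, and 7.3% and 6.94% with the block. ATPAF1, which helps to assemble the catalytic head of complex V, measured 22.0 to 29.4 CPM with miR-28 (median 25.8) and 31.6 to 40.7 CPM with scramble (median 35.6). The groups did not overlap, with each miR-28 library below each scramble library, the only such gene among the assembly factors and 1 of 6 among all genes. Its log2 fold change was -0.46 (standard error 0.115, adjusted p = 1.00 with batch and 0.297 with the block, limma), while the subunits of the head it serves, ATP5F1A and ATP5F1B, had the values of 0.072 and -0.0080 given above. TMEM126A, a factor of complex I assembly, was higher in 6 of 6 pairs (31.4 ± 3.92 CPM with miR-28 and 25.99 ± 1.43 CPM with scramble, SD, n = 6 each; log2 fold change 0.26, adjusted p = 1.00, limma with batch). Of the 65 assembly factors 2 were higher in 6 of 6 pairs, as were 2.07% of all genes.

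Of 20 electron carriers and genes of coenzyme Q synthesis 19 were measured, with 0 at an unadjusted p under 0.05 in each of these fits. COQ8A, needed for coenzyme Q synthesis, and ETFA, a flavoprotein that brings in electrons from fatty acid oxidation, were lower in 6 of 6 pairs by log2 fold changes of -0.14 and -0.097. Of the 19 genes only these 2 were lower in 6 of 6 pairs, as were 2.19% of all genes. Of 21 regulators of mitochondrial transcription and biogenesis 19 were measured, 15 of them below 0, with 0 at an unadjusted p under 0.05. Of all 12725 genes 6730 were below 0. In pair 2 the regulators went the other way, with 15 above 0 and 4 below. NRF1 averaged 40.1 ± 4.62 CPM with miR-28 and 44.0 ± 3.49 CPM with scramble (SD, n = 6 each), and TWNK, the mitochondrial DNA helicase, averaged 48.2 ± 13.5 CPM with miR-28 and 54.7 ± 8.99 CPM with scramble. NRF1 had 33.2 and 36.1 CPM in the miR-28 libraries of pairs 3 and 6, and between 40.6 and 45.8 CPM in the others.

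All 14 genes of the tricarboxylic acid cycle on the list were measured, again with 0 at an unadjusted p under 0.05. IDH3B, a subunit of the NAD-linked isocitrate dehydrogenase, had a log2 fold change of -0.16 (standard error 0.127), and FH, the fumarase that follows complex II in the cycle, had 0.16 (0.127) and 0.058 without pair 3. The summed level of these genes was 2118, 2083, 1279, 1335, 2347 and 1388 CPM in the miR-28 libraries of pairs 1 to 6 and 2115, 2037, 1248, 1515, 2242 and 1365 CPM in the scramble libraries. This sum was low in the same pairs 3, 4 and 6 as that of the nuclear subunits. The sum over the regulators did not show that order, with 1499, 1565, 1241, 1514, 1482 and 1238 CPM with miR-28 and 1601, 1420, 1434, 1576, 1491 and 1389 CPM with scramble.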

How the data were processed

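Polyadenylated RNA of 12 libraries was sequenced. CASAVA 1.8.2, RSEM 1.2.3, cutadapt and the GRCh38 build are listed in the submitters' processing notes, while the sources used here state no annotation, strand setting or filter. The deposited signal values form 1 column per library. All of them (100%) were whole multiples of a step, to within 0.01 reads, and TMM factors computed from the recovered reads equalled those in the values within 8.9e-16, so the unit is CPM scaled by TMM.

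The main test was limma 3.58.1 (trend, R 4.3.3) on log2(value + 1) with batch and group over all 12725 genes, with Benjamini-Hochberg adjustment. Fold changes on this scale understate the change of low genes. The count tests edgeR 4.0.16 and DESeq2 1.42.0 ran on the recovered reads as alternatives. The libraries of a pair deviated together from their group means (r 0.740 to 0.906 across genes with a mean of at least 5 CPM). Among the scramble libraries, the one closest to each miR-28 library was its own partner, so the labelled pairs served as a block.

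Symbols were matched for 12528 genes, and exons and positions came from GENCODE release 29 (12595 genes). Reads of near-identical copies and of overlapping or antisense genes are uncertain. Members and the 5 lists of pathway genes (130 of 134 genes measured) were chosen with earlier results of these data known. Genes were named by rule: every member called or of 1 sign in all 6 pairs (there were 0), in each complex the 4 smallest unadjusted p with batch, all SDH genes, isoform families, the 3 highest and 3 lowest levels, the 3 closest to the summed level, and the 2 smallest p of each list; this gave 41 genes. The values of 1 member are not reported singly here. Alternatives varied scaling, pseudocount, filter, test, terms and libraries.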

Additional observations from a re-analysis of the deposited data

Results flagged for a closer look

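Some libraries stood apart from the others of their group by Dixon's gap ratio, which chance alone exceeds in about 1 in 20 groups. In the scramble library of pair 3 the mitochondrially encoded sum was 68076 CPM, against 16212 to 25393 CPM in the other scramble libraries, and the ratio of that sum to the nuclear sum was 8.54, against 1.28 to 2.67. MT-ND2 had 4679 CPM in that library, against 1360 to 2400 CPM. NDUFV3 was also highest there, at 29.9 CPM against 19.6 to 22.8 CPM, and FH was lowest, at 47.8 CPM against 67.8 to 79.7 CPM.

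In the miR-28 library of pair 4, SDHC was highest at 129 CPM, against 82.2 to 96.3 CPM in the other miR-28 libraries, and ATP5MC2 was lowest at 146 CPM, against 203 to 236 CPM. NRF1 was highest in the scramble library of pair 4, at 51.1 CPM against 42.1 to 43.0 CPM.

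The difference between miR-28 and scramble ran in opposite directions in the pairs labelled XENO 1 and XENO 2 for SDHA, with mean log2 differences of 0.18 and -0.087, and for ATP5IF1, with 0.11 and -0.17. Both genes were picked for this pattern from many that were looked at, so chance may account for it. This difference between the labels was not tested.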

How the results depend on the processing

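The count of members called was 0 under every alternative run, as were the counts for the interaction, the batch term and the other pathway genes. A gene called in neither fit was taken as the same whatever its sign. With the pair as a replicate block the count of members stayed 0, that of all genes was 3 in place of 2, and the block changed no other call. The count of all genes was 2 in the main test, 1 in edgeR with the pair as a replicate block, and 0 without TMM factors, with a pseudocount of 4, with a mean of at least 5, in edgeR with batch, in batch 1 alone, in batch 2 alone and without pairs 3 and 6. It was 0 whichever pair or library was left out. With the block and 1 pair left out, an alternative chosen after seeing the data like that without pairs 3 and 6, it was 0 to 1 without pair 1, 2, 4 or 6. With the libraries of a sample name averaged and the name as a replicate block, also chosen after seeing the data, it was 0.

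The median log2 fold change of the members changed sign with the libraries used: it was 0.083 without the miR-28 library of pair 3, -0.10 without that of pair 5 and -0.096 without the scramble library of pair 3, beside a spread over pairs of 0.0855 (SD, n = 6). These fits had batch and no pair term, so leaving out 1 library left its partner unmatched. The level of that pair then entered the median, which therefore does not show a change in the effect of miR-28. Without pairs 3 and 6 the median was 0.0074. With 8mer sites alone, 1.27% of members had a match in place of 5.06%. The lowest read count of a member in a library was 31, for NDUFS4 in the scramble library of pair 3. Without that library the log2 fold change of NDUFS4 was -0.19 in place of 0.22, in a fit with no pair term.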
